A study of Mus musculus with 40 samples.

Results

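The chromatin described here is the set of H3K9me3 regions that mouse CD4 T cells carried both before and after they became T helper 2 (Th2) cells and that were in neither region list of cells labelled Setdb1 KO. Members are regions of the authors' Th2 wild-type (WT) list, on chromosomes 1 to 19 and X, that shared at least 1 bp with a region of the naive WT list and overlapped no region of the Th2 or the naive Setdb1 knockout (KO) list. The members were thus chosen by the presence of H3K9me3 calls in these 4 lists. There are 4549 of them among 12222 Th2 WT regions, or 37.2%. Their loss in KO cells is therefore how they were chosen and not a result. Each of the 5 H3K9me3 lists is 1 list per group (naive WT, naive Setdb1 KO, Th2 WT, Th2 Setdb1 KO, Th2 Suv39h1 KO), so no overlap has a replicate test, and the naive Setdb1 KO list rests on 1 library, where the others have 2 each.

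Trimethylated lysine 9 of histone H3 (H3K9me3) is a mark of silenced chromatin. SETDB1 is a methyltransferase brought to DNA by zinc finger proteins through the co-repressor TRIM28, and is known for silencing endogenous retroviruses, other repeats and germline genes. SUV39H1 is a second H3K9 methyltransferase, best known for heterochromatin near centromeres. Naive CD4 T cells become Th2 cells under IL-4, with GATA3 as the lineage factor, whereas IL-12 and interferon gamma drive the T helper 1 (Th1) fate through STAT4 and T-bet (Tbx21).

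All cells were splenic CD4+ T cells. WT cells were C57BL/6 Setdb1+/+, and the KO cells were C57BL/6 Setdb1-/-, or Suv39h1-/- with no strain given. Naive cells were not cultured. Th2 cells had 6 days of culture, with plate-bound antibody to CD3ε, antibody to CD28, IL-4 and antibody to IFN-γ at first, and then IL-2 without the stimulating antibodies. Th2-Th1 cells were Th2 cells that had 2 further days in IL-12 and antibody to IL-4. Sex, age, the way Setdb1 was deleted and whether replicates came from separate animals are not in the labels, so p-values measure only the spread between libraries. H3K4me1, a mark of enhancers, H3K27ac, a mark of active enhancers and promoters, and accessible chromatin (ATAC) were compared in Th2 WT and Th2 Setdb1 KO cells with 1 library each. RNA libraries numbered 4 for naive WT, 3 for Th2 WT and 2 for Th2-Th1 WT, and 3 for each of the Setdb1 KO groups.

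Few members lie on gene starts, and 4 starts that do are shown as examples of tested genes with few and with many CG, chosen after their values were seen. Each sequence is the 250 bases before a RefSeq gene start, 5′ to 3′ on the gene's strand (mm10; RefSeq, GRCm38.p6), with CG dinucleotides, the sites of DNA methylation, in capitals. All 4 genes are on the plus strand: Sh3bgrl2 at chr9:83548088-83548337, M1ap at chr6:82946672-82946921, Trerf1 at chr17:47229980-47230229 and Stag3 at chr5:138280259-138280508.
Sh3bgrl2: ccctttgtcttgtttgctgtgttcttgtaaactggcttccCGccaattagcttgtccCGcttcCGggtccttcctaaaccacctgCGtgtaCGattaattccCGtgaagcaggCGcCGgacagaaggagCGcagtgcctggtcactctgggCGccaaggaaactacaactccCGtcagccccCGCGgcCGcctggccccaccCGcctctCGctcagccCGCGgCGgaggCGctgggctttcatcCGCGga
M1ap: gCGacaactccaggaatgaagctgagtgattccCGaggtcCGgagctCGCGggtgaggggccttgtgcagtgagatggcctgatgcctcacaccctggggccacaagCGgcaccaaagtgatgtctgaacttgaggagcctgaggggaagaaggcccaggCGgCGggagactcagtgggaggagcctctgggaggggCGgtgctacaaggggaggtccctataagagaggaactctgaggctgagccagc
Trerf1: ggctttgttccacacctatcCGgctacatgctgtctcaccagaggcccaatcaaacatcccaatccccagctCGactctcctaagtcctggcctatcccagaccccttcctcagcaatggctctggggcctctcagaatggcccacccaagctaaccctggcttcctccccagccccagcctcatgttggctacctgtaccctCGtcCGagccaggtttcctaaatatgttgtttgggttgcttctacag
Stag3: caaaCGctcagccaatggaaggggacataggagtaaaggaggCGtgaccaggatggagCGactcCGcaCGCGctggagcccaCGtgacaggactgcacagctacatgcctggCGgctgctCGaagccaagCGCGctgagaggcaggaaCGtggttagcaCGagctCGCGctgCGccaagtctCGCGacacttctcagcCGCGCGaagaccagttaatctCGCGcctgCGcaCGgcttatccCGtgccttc
The stretches hold 22, 9, 4 and 26 CG in that order. The first 3 lie wholly inside members of 3250, 5350 and 3150 bp. For Stag3 the member begins within the stretch, and 108 bases of its 300-base start window (250 before the start and 50 after) are covered. Of 32619 RefSeq start windows, 53 touched a member and 33 lay wholly inside one, from 48 genes touched in all. Upstream of starts wholly inside members the median GC content was 48.4% and the median number of CG was 3, against 52.4% and 6 over all windows. A ratio of observed to expected CG of at least 0.6 was found in 6.06% of the windows inside members and 34.2% of all windows. The letters TATAAA, searched on both strands, were in 27.3% against 12.4%, and TGACTCA, the consensus of AP-1 factors, in 3.03%, which is 1 window, against 4.48%. The 33 windows inside members came from 29 genes, so some genes count more than once. The windows of Gm41538, for example, overlap each other and both hold TATAAA.

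Members ranged from 300 to 19300 bp, with a median of 1200 bp, and covered 7.41 Mb. They were spread over the genome: 2467 (54.2%) overlapped a gene and 46 (1.01%) a RefSeq start window. Chromosome 11 was the densest, at 2.84 members per Mb, and the X chromosome held 7 members, or 0.154% of them, where 0.262% of all Th2 WT regions and 1.01% of the Th2 Suv39h1 KO regions were on X. Counted in bases, few members were close to the rule's 2 limits. The naive WT list covered a median of 80.7% of a member's bases, 1222 members were covered in full, and 20 shared 100 bp or less, the smallest overlap being 50 bp. The nearest KO region was a median of 511 kb away, and 7 members had one within 1 kb. The KO lists are short, at 1700 (Th2) and 1159 (naive) regions, so this distance does not show how near KO signal came to a call. On the other side of the rule, 45 non-members had a naive WT region within 1 kb, and 73 kept regions failed although KO regions covered at most 20% of them.

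The rest of the Th2 WT list falls into 3 groups. Of the 5269 regions kept from naive cells, 720 overlapped a KO region: 310 in naive KO only, 136 in Th2 KO only and 274 in both. Of the regions seen in Th2 but not in naive cells, 129 overlapped a KO region and 6824 did not. The lists themselves differed in size, with 12222 regions (19.5 Mb) in Th2 WT, 9652 (13.6 Mb) in naive WT, 1700 (2.55 Mb) in Th2 Setdb1 KO and 1159 (2.28 Mb) in naive Setdb1 KO.

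The longest member, at chr7:106595101-106614400 (19300 bp), lies in Gm1966. Another of the 5 longest, at chr1:171717851-171729600 (11750 bp), lies between Cd48 and Slamf1 in the cluster of SLAM receptors, cell-surface molecules of lymphocytes. That cluster is part of the densest 1-Mb window, from 171 to 172 Mb of chromosome 1, which has 35 coding genes in all. The whole window held 20 members, where 1311 windows with at least 1 member had a median of 3. Windows with the class II MHC genes (chromosome 17, 34 to 35 Mb, 17 members), Runx3 (chromosome 4, 135 to 136 Mb, 14 members), the Gimap genes (chromosome 6, 48 to 49 Mb, 12 members) and Stat4 (chromosome 1, 52 to 53 Mb, 11 members) were among the 44 windows with 10 or more, named after their values were seen. None of 1005 RefSeq miRNA hairpins overlapped a member. Zinc finger genes, many of which encode repressors that recruit TRIM28, hosted members in 68 of 466 cases (14.6%), where 7.5% of all coding genes did. Olfactory receptor genes did so in 1 of 1110 cases and vomeronasal receptor genes in 0 of 355.

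Members were also H3K9me3 regions in Th2 cells without Suv39h1. The Suv39h1 KO list overlapped 4531 members, or 99.6%, and covered 96.5% of their bases. The same list overlapped 94.4% of the Th2-only regions absent from KO lists and 89.4% of the kept regions that a KO list still held. That list is much larger than the others, with 43379 regions over 77.0 Mb. At the centres of members it covered 99.1%, and at 5 kb to either side a mean of 10.8%.

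Marks of active chromatin were rare on members in WT cells and were on more of them in Th2 Setdb1 KO cells. H3K4me1 was on 482 members in WT, 10.6% (95% exact binomial interval 9.72 to 11.5), and on 941 in KO, 20.7% (19.5 to 21.9). H3K27ac was on 170, 3.74% (3.20 to 4.33), and on 310, 6.81% (6.10 to 7.59). ATAC peaks were on 245, 5.39% (4.75 to 6.08), and on 313, 6.88% (6.16 to 7.66). The intervals of WT and KO do not overlap for these 3 assays, but they cover counting error only, and with 1 library per group there is no replicate check and the libraries' depths are not in the lists. By bases covered, H3K4me1 went from 4.02% to 11.2%, H3K27ac from 1.58% to 3.51% and ATAC from 0.790% to 1.02%.

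The whole lists changed in different ways between these libraries. The H3K4me1 list had 76251 peaks (124 Mb) in WT and 97020 (121 Mb) in KO, the H3K27ac list 31218 (52.8 Mb) and 40670 (47.1 Mb), and the ATAC list 92071 (33.5 Mb) and 58480 (20.7 Mb). More members thus had an ATAC peak in KO, although the KO list held fewer peaks. The Th2-only regions absent from KO lists carried H3K4me1 in 25.7% of cases in WT and 34.6% in KO, H3K27ac in 10.3% and 14.0%, and ATAC in 10.6% and 9.25%. Kept regions that a KO list still held had 13.5% and 29.9%, 7.78% and 21.4%, and 23.6% and 23.1% in the same order. In both of these groups the WT shares were higher than on members, and the ATAC share was slightly lower in KO. These shares rest on a 1 bp overlap, and median lengths were 900 bp (Th2-only), 2300 bp (kept, in a KO list) and 1200 bp (members). By bases, H3K4me1 covered 3.38% in WT and 9.79% in KO of the kept regions in a KO list, less than on members. H3K27ac covered 1.96% and 6.27% of them and ATAC 3.61% and 3.525%. For the Th2-only regions the base cover was 13.2% and 23.0%, 5.40% and 7.97%, and 1.77% and 1.67%. Whether these groups differ was not tested.

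**Figure D1:**
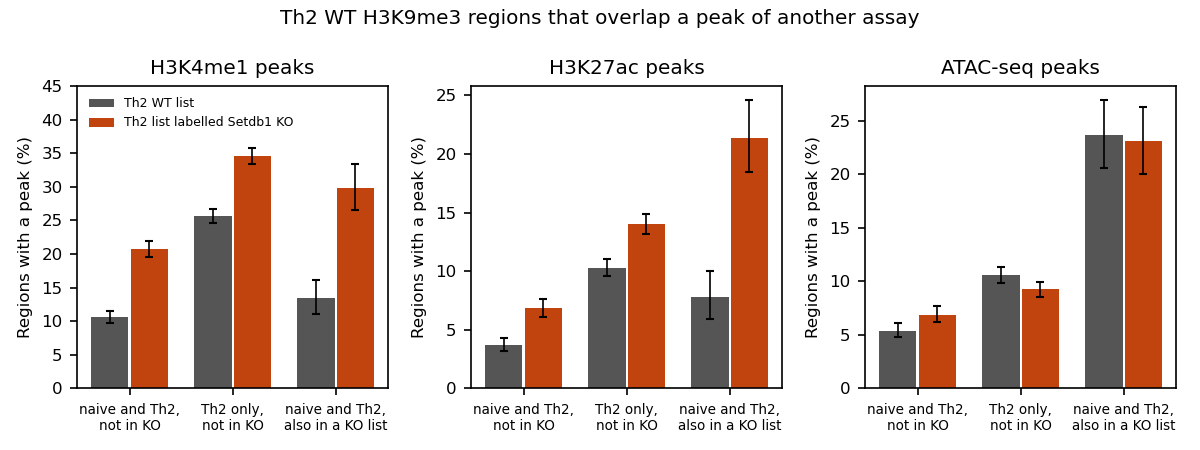
Percent of regions that overlap an H3K4me1, H3K27ac or ATAC peak in Th2 WT and Th2 Setdb1 KO cells (1 library each), for members and for 2 other groups of Th2 WT H3K9me3 regions. Bars are shares and error bars 95% exact binomial intervals (counting error only). Members rise from 10.6% to 20.7% for H3K4me1, from 3.74% to 6.81% for H3K27ac and from 5.39% to 6.88% for ATAC.

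Most members had no such mark in either genotype. H3K27ac was present in KO only on 175 members (3.85%, where 5.79% of all Th2 WT regions had it) and in WT only on 35 (0.769%, against 1.63%). H3K4me1 was present in KO only on 514 (11.3%, against 12%) and in WT only on 55 (1.21%, against 2.23%). For H3K4me1, KO only means absent from the 1-library WT list of the same experiment: 40 of the 514 (7.78%) overlapped a peak of the other Th2 WT list, from 2 libraries, and 47 (9.14%) a peak of the naive WT list. ATAC was present in KO only on 153 (3.36%, against 2.9%) and in WT only on 85 (1.87%, against 3.18%). The shares with a peak in KO only are thus near or below those of the whole Th2 WT list, and nothing particular to members is read from them. All 3 were in KO only at 33 members (0.725%, against 0.548%) and in WT only at 0 (against 0.0164%). Any of the 3 was in KO only at 673 members (14.8%, against 17%) and in WT only at 165 (3.63%, against 6.45%).

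The profile around members showed a dip that became shallower. In WT cells H3K4me1 covered 2.81% of member centres and a mean of 11.9% at 5 kb, and in KO cells 8.99% and 12.9%. H3K27ac went from 1.25% at the centre and 5% at 5 kb in WT to 2.66% and 4.67% in KO. ATAC went from 0.857% and 3.06% to 1.34% and 1.85%. In KO cells all 3 were still lower at the centres than at 5 kb.

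**Figure D2:**
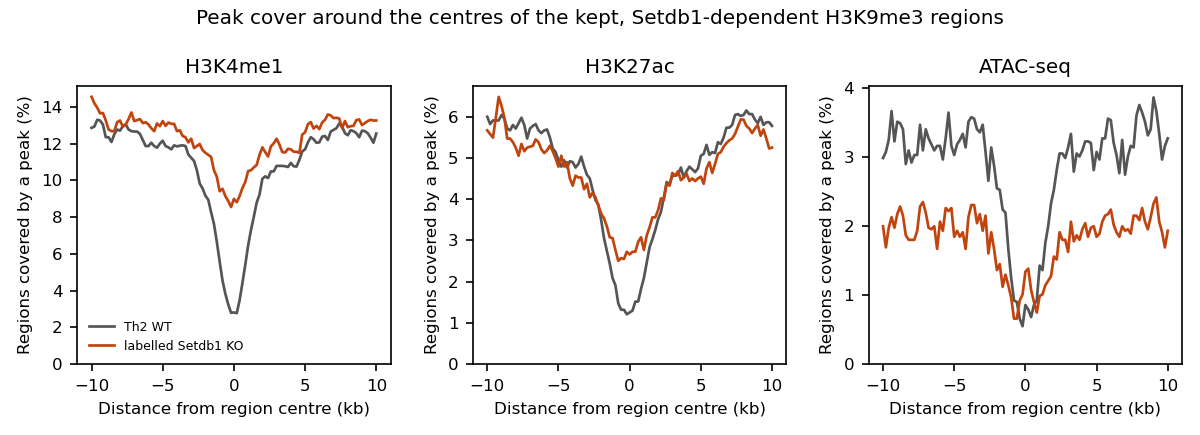
Percent of members covered by a peak at each distance (kb) from the member's centre, for H3K4me1, H3K27ac and ATAC in Th2 WT and Th2 Setdb1 KO cells. The curves dip at the centre, for H3K4me1 to 2.81% in WT and 8.99% in KO.

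Longer members carried active marks more often in both genotypes. H3K4me1 was on 2.28% of the 438 members of 300 to 500 bp in WT and 6.62% in KO, and on 28.1% and 48.5% of the 231 members over 4000 bp. H3K27ac went from 0.685% to 2.05% and from 9.09% to 18.6% in the same classes. ATAC went from 2.28% to 4.11% in the shortest class and was 17.3% in both genotypes in the longest. Longer regions have more bases for a peak to fall on, so class and level cannot be told apart here.

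RNA was read with the level of Setdb1 itself first, because that gene holds a member at chr3:95348451-95349300 and sets the labels. The deposited normalised value (a gene's reads over the library's size factor) was 1214, 1325, 1336 and 1366 in the naive WT libraries and 932.6, 983.6 and 1103 in those labelled KO. It was 693.6, 840.7 and 933.4 in Th2 WT and 8070, 8342 and 9044 in Th2 labelled KO, and 1594 and 1611 in Th2-Th1 WT and 5430, 5914 and 7389 in Th2-Th1 labelled KO. The groups did not overlap, and in the cultured cells the libraries labelled KO were the high ones. The log2 differences from limma were −0.38 in naive cells (adjusted p = 0.0319), 3.37 in Th2 (adjusted p = 7.22e-14) and 1.95 in Th2-Th1 (adjusted p = 3.04e-09). The naive call was lost under 8 of 15 alternatives, including 5 that left out 1 library each: without naive KO replicate 2 or 3 or naive WT replicate 1, 2 or 3, adjusted p was 0.152, 0.0606, 0.0681, 0.0675 and 0.0566. The deleted part of the gene is not in the labels, so RNA over the whole gene does not check the deletion, and the text writes of libraries labelled KO. A second member 17.4 kb away, at chr3:95374601-95379550, had H3K4me1, H3K27ac and ATAC peaks in KO cells only.

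Sequencing depth and library quality differed between groups. Th2 KO libraries had 36.3 to 44.7 M reads and Th2-Th1 KO ones 37.2 to 37.6 M, against 10.1 to 13.3 M and 18.9 to 19.8 M in their WT groups and 10.0 to 18.5 M in naive cells. Of the naive libraries, WT replicate 1, WT replicate 3 and KO replicate 2 stood apart by more genes detected at equal depth (21278, 25556 and 22208, against 15148 to 18608 in the others). Each of the 10 CD4 T cell identity genes had reads in every group, and in KO 6 of them were lower and 1 higher in Th2, 7 lower and 0 higher in Th2-Th1 and 2 lower and 1 higher in naive cells. Of the 7 tested CD8 and cytotoxic markers 1 was higher and 2 lower in Th2, with summed values of 11120 to 14390 in WT and 5528 to 5632 in KO. Summed erythroid and platelet markers were 24.1 to 56.5 in Th2 WT and 391 to 441 in KO, where 1 of 6 tested was higher. Summed NK cell markers were between 0 and 51.1, and the summed 8 B cell markers were 294 to 387 in Th2 WT and 756 to 1317 in Th2 KO, where 1 of the 8 passed the test. The part of these markers in the results was not tested.

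Genes that host members included many that were higher and many that were lower in the libraries labelled KO. Of 17254 genes tested, 1436 hosted a member (span overlap) and 2218 more lay within 20 kb of one. In Th2, 499 host genes (34.7%) were higher and 352 (24.5%) lower, where 29.3% of all genes were higher and 24.7% lower (limma, adjusted p under 0.05). In Th2-Th1, 368 (25.6%) were higher and 219 (15.3%) lower, where 17.6% and 16.1% of all genes were. In naive cells, 180 (12.5%) were higher and 47 (3.27%) lower, where 7.43% and 3.45% of all genes were. Neighbour genes were closer to all genes: 30.7% higher and 26.3% lower in Th2, 20.1% and 17% in Th2-Th1, and 8.12% and 3.52% in naive cells. In bulk RNA, more cells of a type and more RNA per cell cannot be told apart. Without the 3 naive libraries that stood apart, 93 host genes (6.48%) were higher and 17 (1.18%) lower in naive cells, where 4.42% and 1.18% of all genes were.

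Host genes are long, and part of this contrast went with length. Their median span was 72.9 kb, against 19.1 kb over all tested genes. Among genes of 20 to 50 kb the share higher in Th2 was 32.7% of hosts and 36.2% of other genes, among those of 50 to 100 kb 38.2% and 38%, and among those of 100 to 200 kb 35.1% and 34.1%. It was 32.4% and 24.9% up to 20 kb and 34.1% and 20.4% above 200 kb. In Th2-Th1 hosts exceeded other genes in each of the 5 classes, from 19.7% against 14.5% up to 20 kb to 26.9% against 10.5% above 200 kb. In both comparisons the shares lower were larger in hosts too in the 4 classes above 20 kb, and smaller up to 20 kb (23.9% of hosts and 29.9% of other genes in Th2): above 200 kb they were 27.4% of hosts and 10.7% of other genes in Th2 and 18.8% and 6.91% in Th2-Th1, and from 100 to 200 kb 24.8% and 16.1% in Th2. For naive cells the share higher was 6.38% of hosts and 4.88% of other genes up to 20 kb. It was 11.2% and 9.79% from 20 to 50 kb and 15.2% and 12% from 50 to 100 kb. From 100 to 200 kb it was 13.8% and 12.4%, and above 200 kb 13.9% and 4.55%. The naive shares lower were 7.98% and 4.82%, 1.96% and 2.51%, 3.74% and 2.32%, 1.57% and 1.12%, and 3.14% and 0.727% in the same order. Whether the shares differ was not tested. By TMM scaling, in place of the deposited size factors, the median of all genes in Th2 moved from 0.13 to 0.28 on the log2 scale.

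Of 185 tested genes linked to a member that carried H3K27ac in KO only, 75 (40.5%) were higher and 45 (24.3%) lower in Th2, where 29.3% and 24.7% of all genes were. In Th2-Th1 60 (32.4%) were higher and 31 (16.8%) lower, against 17.6% and 16.1%, and in naive cells 41 (22.2%) and 10 (5.41%), against 7.43% and 3.45%. In naive cells without the 3 libraries that stood apart the shares were 14.1% and 2.7%, against 4.42% and 1.18%. For members with H3K4me1 in KO only, 536 tested genes were higher in 36.8% and lower in 24.3% of cases in Th2. The shares were 28.4% and 16.4% in Th2-Th1 and 14.7% and 4.48% in naive cells. For members with ATAC in KO only, 158 tested genes were higher in 31% and lower in 26.6% in Th2, close to all genes. In Th2-Th1 they were higher in 26.6% and lower in 15.8%, against 17.6% and 16.1% of all genes. The naive shares of this ATAC set were 11.4% and 5.06%, against 7.43% and 3.45%. Genes higher in all 3 comparisons, which use separate WT libraries, were 59 of the 1436 hosts (4.11%) and 18 of the 185 with H3K27ac in KO only (9.73%), where 1.9% of all genes were. Without the 3 naive libraries these became 1.32% and 5.41%, against 0.661%. Stag3, Atf7ip and Tubb3 are among the 18. The shares of these linked genes were not split by gene span.

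**Figure D3:**
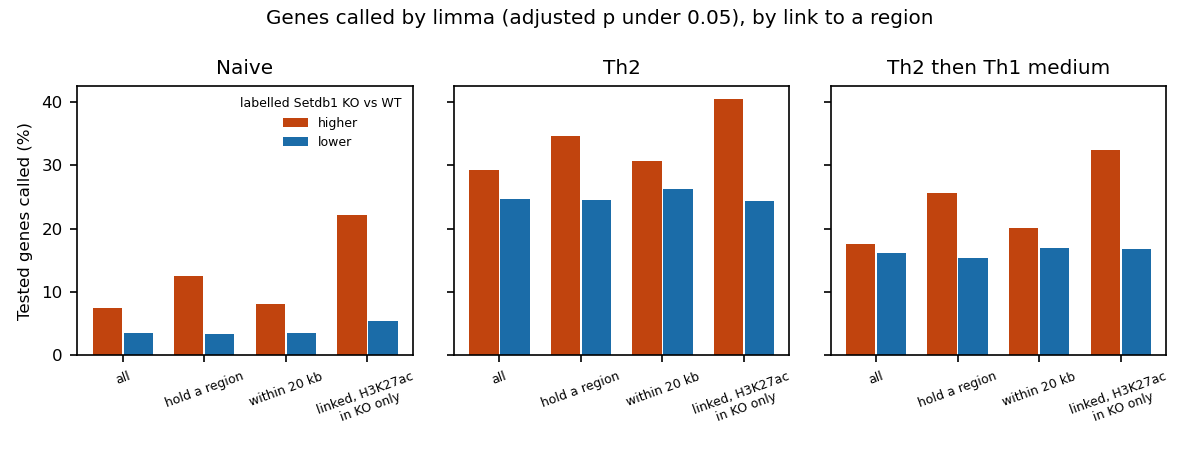
Percent of tested genes higher and lower in libraries labelled Setdb1 KO (limma, adjusted p under 0.05) among all genes, host genes, neighbours within 20 kb and genes linked to members with H3K27ac in KO only, by comparison (orange bars higher, blue bars lower). In Th2, 34.7% of host genes and 29.3% of all genes were higher.

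Some hosts with large differences are known for meiosis or for motile cilia. Stag3 encodes a meiotic cohesin subunit, and 1 of its RefSeq starts, inside the gene's span, lies at the edge of a member with H3K27ac in KO only. H3K4me1 covered 589 bp of that member in KO and none in the matched WT library, but 199 bp in the other Th2 WT list and 286 bp in naive WT. Stag3 values were 4.72, 17.5, 28.8 and 41.6 in naive WT and 241.6, 322.1 and 335.9 in naive KO, 24.95, 40.8 and 88.7 in Th2 WT and 2132, 2194 and 2398 in Th2 KO, and 50.8 and 63.9 in Th2-Th1 WT and 966.7, 1167 and 1207 in Th2-Th1 KO. The libraries labelled KO were the higher ones in each condition, with no overlap, by 3.96 ± 0.48 (SE), 5.61 ± 0.51 and 4.26 ± 0.57 on the log2 scale (limma, adjusted p = 1.33e-05, 1.94e-08 and 1.14e-05). Dnah8, an axonemal dynein heavy chain of motile cilia and sperm, holds 4 members and was abundant already in WT: naive WT values ran from 3545 to 4881 and naive KO from 13730 to 16740, Th2 WT from 1286 to 1387 and Th2 KO from 6632 to 8902. It rose by 1.84, 2.50 and 2.91. Drc1, a dynein regulatory gene, rose in naive cells (by 4.22) and in Th2 (adjusted p = 3.03e-08), and differed by 1.39 in Th2-Th1 (adjusted p = 0.160). Dnah7a, another dynein, rose by 6.65 in Th2 and 6.14 in Th2-Th1.

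Of the 48 genes whose start windows touched a member, 13 passed the filter on low values and were tested. In Th2 9 (69.2%) were higher and 0 lower, where 29.3% and 24.7% of all genes were. The filter itself keeps a silent gene only if it is high somewhere. The 9 calls included Klhl5, lost without Th2 KO replicate 3 or Th2 WT replicate 3 (adjusted p = 0.0591 and 0.0978). In Th2-Th1 5 (38.5%) were higher and 1 (7.69%) lower, against 17.6% and 16.1% of all genes. Of those 5 calls 3, of Hykk, Sh3bgrl2 and Trerf1, were lost without Th2-Th1 WT replicate 2 (adjusted p = 0.199, 0.305 and 0.0707). In naive cells 2 (15.4%) were higher and 1 (7.69%) lower, against 7.43% and 3.45% of all genes. Of these, Trerf1 and Klhl5 lost their calls without the 3 libraries that stood apart (0.0856 and 0.172). The genes named from this group were chosen after their values were seen. Sh3bgrl2, a small protein of the SH3-binding glutamate-rich family, was at 35.3, 40.3 and 42.4 in Th2 WT and at 610.7, 656.4 and 858.3 in Th2 KO, a difference of 4.13 ± 0.52 (adjusted p = 1.42e-06). Its naive difference was 0.06 (adjusted p = 0.974). The Sh3bgrl2 member already had peaks in WT: ATAC covered 759 bp of it in Th2 WT and 345 bp in Th2 KO. H3K4me1 covered 814 bp in the matched WT library, 381 bp in KO and 1040 bp in naive WT. Trerf1, a transcriptional regulator, had 424.9, 425.4 and 426.6 in Th2 WT and 1536, 1889 and 1896 in KO, and rose by 2.05 (adjusted p = 1.51e-06), with H3K27ac in KO only on the member at this start, which lies inside the gene's RefSeq span. H3K4me1 covered that member's 3150 bp in KO, none in the matched WT library and 211 bp in the other Th2 WT list. Rims3, a synaptic active-zone protein, rose by 4.86 in Th2 (adjusted p = 3.07e-07). The member at its start has an ATAC peak in KO only, over 30 of its 700 bp. M1ap, a meiosis gene, was at 3.71, 8.07 and 22.5 in Th2 WT and at 51.96, 94.96 and 131.2 in KO. It rose by 3.13 (adjusted p = 0.0110), a call lost without Th2 WT replicate 2 (0.0564). The M1ap member also had peaks in Th2 WT. H3K27ac covered 884 bp of it in WT and 414 bp in KO, and ATAC 389 and 247 bp. H3K4me1 covered 1883 bp in the matched WT library and 2455 bp in KO.

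**Figure D4:**
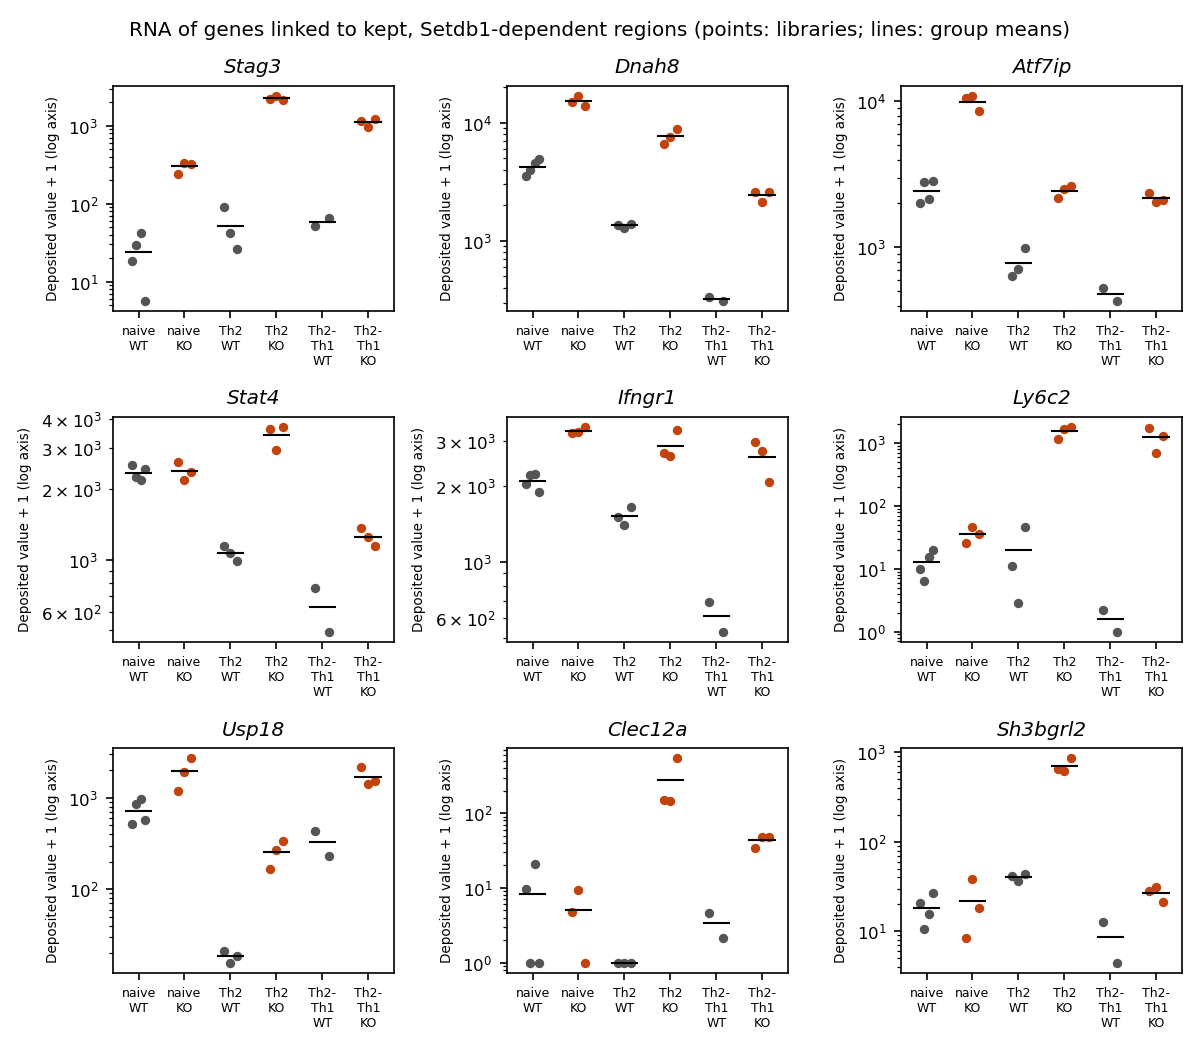
Normalised values of Stag3, Dnah8, Atf7ip, Stat4, Ifngr1, Ly6c2, Usp18, Clec12a and Sh3bgrl2 in each RNA library on a log axis, value plus 1, by condition and genotype label (grey WT, orange KO), with lines for group means. For Stag3 the libraries labelled KO lie above WT in all 3 conditions, and for Sh3bgrl2 Th2 KO lies at 610.7 to 858.3 and Th2 WT at 35.3 to 42.4.

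Of 28 H3K9me3 machinery genes 4 (Setdb1, Atf7ip, Zfp809 and Hells) held a member and 5 lay within 20 kb of one, where 7.5% of all coding genes held one and 11.7% lay within 20 kb. Of these 9 genes 6 rose and 0 fell in Th2, 5 rose and 2 fell in Th2-Th1, and 3 rose and 1 fell in naive cells. Setdb1 itself is counted among those that rose in Th2 and Th2-Th1 and is the gene that fell in naive cells. Over all 28, again with Setdb1, the counts were 20 and 2, 11 and 4, and 10 and 1. Among all genes the shares higher and lower were 29.3% and 24.7%, 17.6% and 16.1%, and 7.43% and 3.45% in the same order. In Th2-Th1 the calls of Zfp809, Morc2a, Cbx3 and Ehmt1 were lost without Th2-Th1 WT replicate 2 (adjusted p = 0.135, 0.197, 0.0506 and 0.164). Atf7ip, the partner that stabilises SETDB1, holds 2 members, one of them (chr6:136525851-136529350) with H3K27ac in KO only. H3K4me1 covered all 3500 bp of it in KO and none in the matched WT library, but 701 bp in the other Th2 WT list and 1129 bp in naive WT. Atf7ip values were 2023 to 2828 in naive WT and 8530 to 10850 in naive KO, 633.1 to 985.4 in Th2 WT and 2181 to 2636 in KO, and it rose by 2.04, 1.67 and 2.19. Morc2a, a repressor of the HUSH pathway 1.24 kb from a 9150 bp member, rose by 0.88 in naive cells and 2.38 in Th2. Zfp809, a zinc finger that recruits silencing to retroviral elements, rose by 0.93 in Th2. Hells, a chromatin remodeller, rose by 1.38 in naive cells and 0.85 in Th2, and Setdb2, a related methyltransferase, by 1.12 in Th2. Trim28 differed by −0.00084 in Th2 (adjusted p = 1) and rose by 0.65 in Th2-Th1.

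Of 26 listed Th1 genes 10 were linked to members, and of these 6 rose and 2 fell in Th2, 8 rose and 0 fell in Th2-Th1, and 3 rose and 1 fell in naive cells. All 26 gave 13 and 4, 15 and 1, and 5 and 2. Over all tested genes the shares higher and lower were 29.3% and 24.7%, 17.6% and 16.1%, and 7.43% and 3.45% in the same order. Of the 8 calls in Th2-Th1, those of Eomes, Runx3 and Il12rb1 were lost without Th2-Th1 WT replicate 2 (adjusted p = 0.212, 0.0545 and 0.0791). In naive cells Eomes lost its call without naive KO replicate 2 (0.0669) and Runx3 without naive KO replicate 1 (0.227). Stat4, the signal transducer of IL-12, holds 3 members (chr1:52030801-52031700, chr1:52071201-52074200 and chr1:52084051-52085200), and the latter 2 had H3K4me1 in KO only. It covered 89 of 3000 bp and 564 of 1150 bp of them. At both, the KO peak reached in from beside the member, where the matched WT library also had a peak. Stat4 values were 2198 to 2531 in naive WT and 2196 to 2605 in naive KO, a difference of 0.02 (adjusted p = 0.959). They were 992.9, 1073 and 1143 in Th2 WT and 2933, 3605 and 3684 in KO, and 493.7 and 757.1 in Th2-Th1 WT and 1143, 1256 and 1369 in KO. Stat4 rose by 1.67 ± 0.14 in Th2 (adjusted p = 4.17e-09) and 1.03 ± 0.15 in Th2-Th1 (adjusted p = 3.13e-05). Ifngr1, a chain of the interferon gamma receptor, holds a member with H3K4me1 in KO only, over 136 of its 1400 bp. Ifngr1 RNA rose by 0.67, 0.92 and 2.08.

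Other Th1 genes lie beside members. Tbx21, the Th1 lineage factor, is 7.71 kb from one. It was at 0, 0 and 2.02 in Th2 WT and 8.49, 13.4 and 17.9 in KO, and at 138.2 and 198.7 in Th2-Th1 WT and 1941, 2086 and 2485 in KO, so it rose by 3.25 and 3.70. Ifng, 16.2 kb from a member, was at 43.7 and 70.9 in Th2-Th1 WT and at 6251, 14970 and 15360 in KO, a rise of 7.64 (adjusted p = 4.08e-07). Ly6c2, 14.3 kb away and encoding a surface protein of effector T cells, rose by 7.07 in Th2 and 9.64 in Th2-Th1. Its reads may be shared with close paralogs of the Ly6 family. Eomes, a factor related to T-bet, rose by 5.85 in Th2, from 0, 0 and 4.99 in WT to between 83.9 and 152.6 in KO. Runx3, a partner of T-bet, fell by 1.56 in Th2. None of these 5 neighbouring members had H3K27ac, ATAC or H3K4me1 in KO only.

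Of 21 Th2 programme genes, 20 tested, 7 were linked, and of these 1 rose and 2 fell in Th2, 0 rose and 4 fell in Th2-Th1, and 3 rose and 1 fell in naive cells. The tested 20 gave 3 and 11, 0 and 10, and 3 and 1. For all tested genes the shares higher and lower were 29.3% and 24.7%, 17.6% and 16.1%, and 7.43% and 3.45% in the same order. Epas1, a hypoxia factor, fell by 2.25 on the log2 scale in naive cells and was lower in Th2-Th1 as well (adjusted p = 1.06e-04). Gata3, 15.3 kb from a member, differed by 0.04 in Th2 (adjusted p = 0.901) and fell by 1.28 in Th2-Th1. Pparg, a nuclear receptor 0.378 kb from a member, was at 2250, 2280 and 2789 in Th2 WT and 227.3, 446.2 and 498.3 in KO, and fell by 2.71 (adjusted p = 0.00262). Il10, 11.8 kb from a member with H3K27ac in KO only, differed by −1.61 in Th2 (adjusted p = 0.0116), a call lost without Th2 KO replicate 3 (0.0542). In Th2-Th1, 2 of the 4 lower calls, of Il10 and Pparg, were lost without Th2-Th1 WT replicate 2 (adjusted p = 0.0552 and 0.149), and the naive call of Gata3 was lost without naive KO replicate 1 (0.0882).

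The list of 28 interferon-stimulated genes gave 25 higher and 0 lower in Th2, 22 and 0 in Th2-Th1 and 11 and 0 in naive cells. Its 4 linked genes gave 4 and 0, 3 and 0, and 3 and 0. The shares of all tested genes higher and lower were 29.3% and 24.7%, 17.6% and 16.1%, and 7.43% and 3.45% in the same order. Mx1 lost its Th2-Th1 call without Th2-Th1 WT replicate 2 (adjusted p = 0.118) and its naive call without naive KO replicate 3 (0.105), and Usp18 its naive call without the 3 libraries that stood apart (0.0534). Usp18, a brake on interferon signalling, holds a member. It was at 14.8, 17.5 and 20.2 in Th2 WT and at 165.7, 266.0 and 338.7 in KO, a rise of 3.75 ± 0.32 (adjusted p = 8.11e-09). Mx1, an antiviral GTPase with a member carrying H3K4me1 in KO only, over 82 of its 900 bp, rose by 3.98 in Th2. Zbp1, a sensor of nucleic acids 9.56 kb from a member, rose by 3.21 in Th2 and 1.73 in Th2-Th1. Xaf1 rose by 2.71 in Th2 and differed by −0.10 in Th2-Th1 (adjusted p = 0.883).

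Genes beside members that gained all 3 marks were split. The 33 members had 26 tested linked genes, of which 10 (38.5%) were higher and 6 (23.1%) lower in Th2, where 29.3% and 24.7% of all genes were. In Th2-Th1 10 were higher and 3 (11.5%) lower, against 17.6% and 16.1% of all genes, and in naive cells 1 (3.85%) and 4 (15.4%), against 7.43% and 3.45%. Clec12a, an inhibitory lectin receptor of myeloid cells, is 0.682 kb from such a member (chr6:129346201-129349100). It was listed at 0 in all 3 Th2 WT libraries and at 146.0, 149.8 and 544.1 in Th2 KO, so it was at least 44.0-fold higher (taking 3 reads in each WT library as the floor), or at least 23.2-fold without Th2 KO replicate 3, the library at 544.1. The summed 8 myeloid markers with a value were 1604 to 2107 in Th2 WT and 395 to 497 in KO, while of the 6 tested 0 were higher and 1 was lower, with a median log2 difference of 0.27. Their part in the result was not tested. Stat5b, a transducer of IL-2 signals, fell by 1.35 in Th2 and rose by 0.88 in Th2-Th1. Peli1, a ubiquitin ligase with a gaining member 18.5 kb away, fell in each condition, from 2153, 2203 and 2557 in Th2 WT to 540.6, 565.8 and 570.4 in KO, a difference of −2.04 (adjusted p = 2.20e-12).

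**Figure D5:**
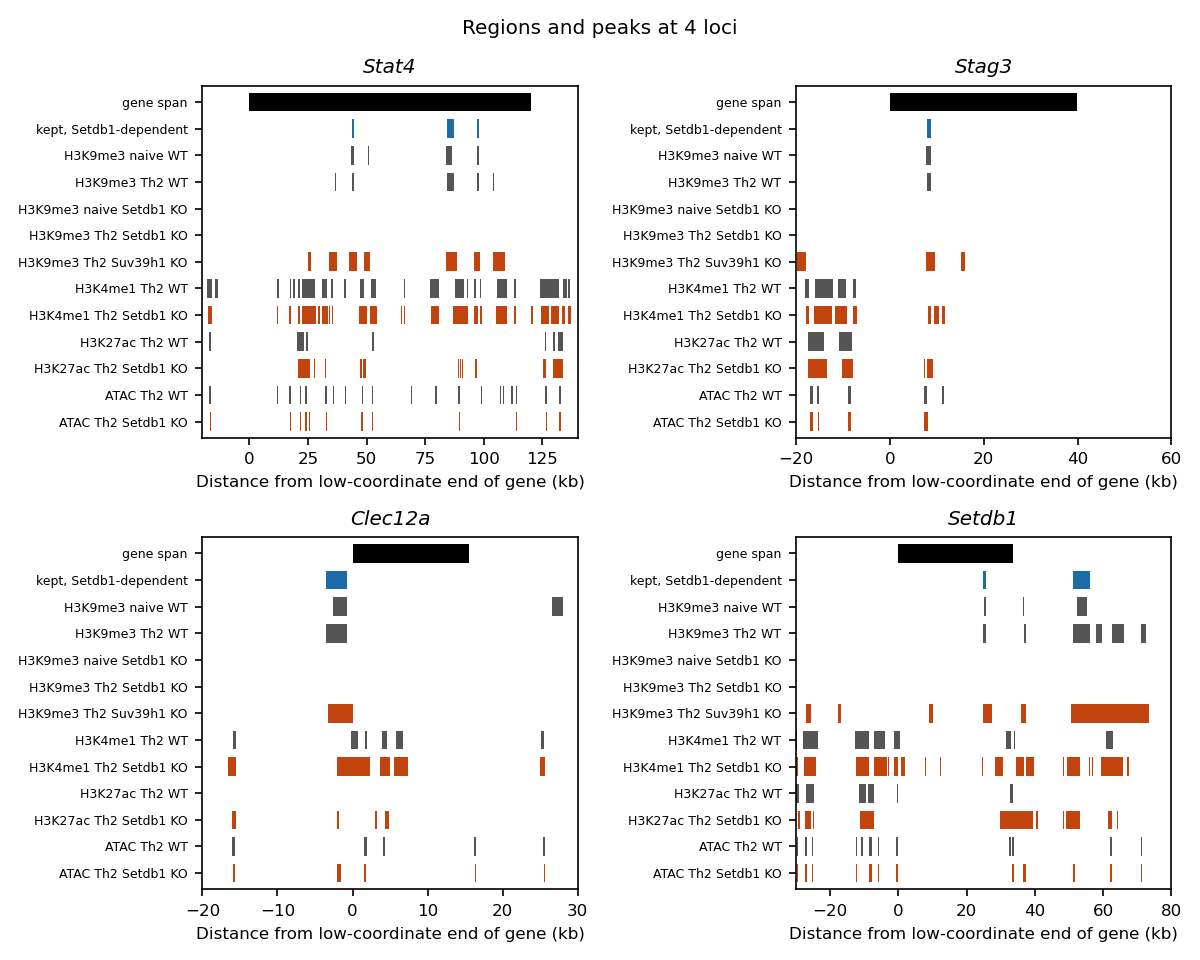
Maps of the Stat4, Stag3, Clec12a and Setdb1 loci, with distance in kb on the x axis and 1 row per peak list (members, other H3K9me3 lists, H3K4me1, H3K27ac and ATAC in WT and KO) and the gene's span (black; members blue, WT lists grey, KO lists orange). KO-only peaks overlap the members at Stag3, near Clec12a and beside Setdb1. For 2 of the 3 Stat4 members H3K4me1 in KO only reaches over 89 and 564 bp.

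Several hosts and neighbours were lower in the libraries labelled KO. The SLAM cluster, part of the window with the most members, has such genes. Slamf1, Ly9, Cd84, Cd48 and Cd244a were named after their values were seen, and Ly9 had no member within 20 kb. Slamf7, an activating receptor 12.9 kb from a member, was at 6367, 7407 and 8120 in Th2 WT and at 14.8, 20.7 and 33.0 in KO, a difference of −8.32 ± 0.51 (adjusted p = 1.00e-10). Slamf6, with 2 members inside, fell by 1.26 in Th2 and fell by 2.86 in Th2-Th1. Slamf1, Ly9 and Cd84 fell by 1.70, 0.77 and 0.64 in Th2, and Cd48 rose by 0.61. Cd244a differed by 1.92 with an adjusted p of 0.0458, a call lost without any 1 of the 6 Th2 libraries (0.0738 to 0.131). None of the members named here at Slamf7, Slamf6 and Slamf1 had a mark in KO only. Dntt, the polymerase that adds nucleotides to antigen receptor joints, fell by 7.03 and 3.90 in Th2 and Th2-Th1, and Ndrg1, a stress-response gene, by 4.51 and 1.23. Tox, a nuclear factor of T cell development and exhaustion with 2 members, rose by 6.32 and 3.40, and Tubb3, a neuronal tubulin 14.6 kb from a member with H3K27ac in KO only, by 6.39, 6.09 and 4.41.

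In WT cells, the same host genes shifted with differentiation. From naive to Th2, 458 hosts (31.9%) were higher and 581 (40.5%) lower, where 32.8% and 33.1% of all genes were. Among the genes above, Stat4, Usp18, Atf7ip, Dnah8 and Tox were lower in Th2 WT than in naive WT, by −1.14, −5.25, −1.66, −1.64 and −9.39 on the log2 scale, while Slamf7, Pparg and Gata3 were higher, by 8.58, 9.58 and 1.85. The members named at these genes had H3K9me3 in both states by the rule, which asks for 1 bp of overlap. The naive WT list covered 11.9% of the Pparg member, 23.6% of the Slamf7 member and 51.6% of the Gata3 member. It covered 59.4% or more of each member at Stat4, Usp18, Atf7ip, Dnah8 and Tox.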

How the data were processed

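Peak and region lists and 1 RNA table were used. Reads were trimmed with cutadapt 1.3 and mapped with TopHat2 2.0.5 or BWA 0.7.10, peaks came from MACS2 2.1.0 and the build was mm10, as far as the submitters' processing notes list tools; which step used which, the caller of the H3K9me3 lists and the strand setting of the counting are not given in these sources, so reads of overlapping and antisense genes cannot be told apart. The RNA signal values were deposited by the authors as a gene's reads over the library's size factor, and whole reads were recovered from 100% of values within 0.01. The file held every gene in 2 identical copies, of which 1 was used. The score of a region is the authors' own and its scale is not named in the H3K9me3 lists. The deposited ratio columns (fold enrichment, by the authors' caller) and −log10 p or q columns were not used.

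Members and gene lists were chosen with earlier results of these data known. Overlap meant at least 1 bp, and a gene was a host when its RefSeq span (GRCm38.p6) overlapped a member and a neighbour within 20 kb. The RNA test was limma 3.58.1 with a trend, on log2 of the value plus 1, over 18 libraries in 6 groups, for genes at 10 or more in at least 2 libraries, with Benjamini-Hochberg adjustment over 17254 genes and a threshold of 0.05. A log2 difference on this scale understates low genes. Simulated 2-fold changes, placed only on genes at a mean of 50 or more, were recovered in 86% of genes for naive, 80% for Th2 and 65% for Th2-Th1 (n = 100 each). Recovery at lower values was not examined. Recovered reads were tested with edgeR 4.0.16 and DESeq2 1.42.0 as alternatives. Shares carry exact (Clopper-Pearson) 95% intervals, and a group with no read was set to 3 reads per library, both for counting error only. Other alternatives were scaling by TMM, a pseudocount of 5, no filter, each replicate left out, stricter overlaps and scores, and neighbours within 5 or 50 kb.

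Named genes were, per comparison, up to 10 hosts and 5 neighbours each way ranked by size of change, if called, not overlapping between genotypes, at a mean of 50 or more and not a predicted gene, plus linked genes of the 4 lists (SETDB1 machinery, Th1, Th2 and interferon-stimulated genes) and Setdb1. The text gives a selection of them, and some items that the rules name are not reported here.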

Additional observations from a re-analysis of the deposited data

Results flagged for a closer look

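The following genes, among those the text names, had log2 differences between libraries labelled Setdb1 KO and WT that pointed in opposite directions in different conditions, with no overlap between the groups; the differences between conditions were not tested. Setdb1 was at −0.38 in naive cells, 3.37 in Th2 and 1.95 in Th2-Th1. Eomes was at −2.63, 5.85 and 2.25 in the same order. Slamf6 was at 0.37, −1.26 and −2.86, Il2rb, a chain of the IL-2 receptor, at 2.21, −0.43 and 0.98, Klhl5 at −1.02, 0.69 and 0.53, and Slamf1 at 0.76, −1.70 and −0.38. Runx3 was at −1.56 in Th2 and 0.88 in Th2-Th1, and Stat5b at −1.35 and 0.88. Gata3 was at 0.80 in naive cells and −1.28 in Th2-Th1.

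For 4 of 57 named genes, 1 of the 4 naive WT libraries was separated from the rest by a gap wide against the group's range. For normally distributed values, chance alone gives such a gap for about 1 gene in 20. Ifng was at 1.81 in that library, which is 1 read of WT replicate 3, and at 0 in the other 3. A single read in 1 library and none in the rest always gives such a gap. WT replicate 3 is among the naive libraries that stood apart. Il4ra, the IL-4 receptor chain, was at 6924, with 6155 next. Ccr4, a chemokine receptor of Th2 cells, was at 11.3, with 1.81 next, and Dnah7a was at 45.3, with 1.25 next.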

How the results depend on the processing

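Among the summary values, 396 stayed within 1.5 times of the main count or within the counting interval of the main share, and 118 moved. Counts and shares have no sign, so a reversal was not defined for them. For single genes, 1428 combinations of a gene's call and an alternative kept the call and 99 lost it. At least 20% of a member covered gave H3K4me1 on 2.15% (naive WT), 4.44% (Th2 WT), 5.54% (WT of the paired assay) and 14.0% (KO), H3K27ac on 2.22% and 4.04%, and ATAC on 1.08% and 1.74%; in KO only and WT only it gave H3K27ac 1.93% and 0.330%, ATAC 0.681% and 0.264%, and H3K4me1 6.73% and 0.396%. With at least 50% of a member covered by naive WT regions these were 3.10%, 6.54%, 7.51% and 16.7%, 2.63% and 5.24%, 3.91% and 5.65%, with 3.21% for H3K27ac in KO only, 1.39% for ATAC in WT only, and 10.1% and 0.859% for H3K4me1. With peaks at or above the median score they were 2.18%, 4.86%, 7.36% and 14.2%, 2.35% and 4.15%, 2.51% and 3.19%, with 92.6% for Suv39h1 KO H3K9me3, 1.74% and 0.264%, 0.945% and 0.440%, and 6.00% and 0.659%. Members at or above the median score gave 5.01%, 11.8%, 14.1% and 26.4%, 5.27% and 8.79%, 6.86% and 8.53%, 99.8% for Suv39h1 KO, 4.66% and 1.14% for H3K27ac in KO and WT only and 13.9% and 1.58% for H3K4me1. KO exceeded WT for the 3 marks in each of these settings.

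Those 2275 members had 1185 hosts, of which 109 were higher and 26 lower in naive cells, 278 and 214 in Th2, 229 and 132 in Th2-Th1, and 283 and 317 from naive to Th2 in WT, and 2688 neighbours, with 98 and 50, 376 and 334, 251 and 216, and 440 and 428. Neighbours within 5 kb, 1324 genes, gave 40 and 13, 167 and 141, 109 and 83, and 190 and 182, and within 50 kb, 10117 genes, 359 and 168, 1351 and 1185, 856 and 748, and 1585 and 1497. In naive cells a fit of only those groups gave 715 higher and 313 lower over all genes, 105 and 31 hosts, and 108 and 43 neighbours. Without the 3 libraries that stood apart, chosen after seeing the data, it gave 762 and 203, 93 and 17, and 117 and 28. DESeq2 gave 896 lower genes. On recovered reads edgeR called 5494 genes higher and 3892 lower in Th2, 3573 and 2603 in Th2-Th1 and 1403 and 521 in naive cells. Leaving out 1 library, naive counts ran from 757 to 1663 higher and 320 to 834 lower genes, 104 to 241 and 29 to 62 hosts, and 108 to 235 and 46 to 118 neighbours, lowest mostly without naive KO replicate 1 or 2. Th2-Th1 ran from 1980 to 2650 higher genes and from 239 to 342 lower neighbours, lowest without Th2-Th1 WT replicate 2. The cause was not tested.

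Replicate numbers did not pair the libraries: same-numbered naive libraries correlated at 0.011, −0.411 and −0.400. With the replicate block, 497 hosts were higher and 356 lower in Th2, 372 and 219 in Th2-Th1 and 160 and 48 in naive cells. WT Th2-Th1 has only 2 libraries.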
